A study of Drosophila melanogaster with 3 samples.

Results

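Of the 8143 peaks called for a GFP-tagged abd-A protein in whole Drosophila melanogaster embryos, 1589 (19.5%) had their summit within 500 bp of an annotated start of a protein-coding gene with no opposite-strand coding start within 1000 bp of it. These are peaks at single-direction coding promoters, and they are the subject of the report. The rule used positions only. The nearest coding starts belonged to 1255 genes, of which 1001 had 1 such peak, 196 had 2, 44 had 3 and 14 had 4 or more. Embryos of mixed sex were collected at 4 to 24 hours from a line stably carrying abd-A fused to GFP at its C-terminus, and chromatin was precipitated with an anti-GFP antibody. The series held 1 group of 3 biological replicates, with neither a second genotype nor a treatment. The peaks came from the list thresholded by the irreproducible discovery rate (IDR), which keeps peaks whose rank repeats between replicates. For counts, positions, support and words, replicate lists were each cut to their 8143 strongest peaks, because the read depth behind each list was unknown. Strength values were taken from the full replicate lists of 30000 peaks. The tagged protein came from a transgene and the chromatin from whole embryos, so the cells behind each peak are not known, and a called peak does not by itself separate binding from nonspecific precipitation.

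abd-A is a Hox gene, and its homeodomain protein gives abdominal segments their identity by switching target genes on or off. Homeodomains bind short AT-rich words, and Hox proteins often bind them together with the cofactors Exd and Hth. Fly promoters are of several kinds. Developmentally regulated promoters often combine an Initiator at the start with a downstream promoter element (DPE) or a TATA box, and repeats of GA upstream of the start are bound by the factors Trl and Psq. Constitutive promoters, many of them divergent, more often carry words bound by Dref, BEAF-32 or M1BP.

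The promoters of 6 genes are printed here from the RefSeq genome (dm6 coordinates), each with 250 bases before the start and 50 from the start on, on the gene's strand. They were chosen because the first 4 lie under the strongest peaks of the group and because Dr and pnr combine the words that were more frequent at bound promoters. Capitals mark the GA repeat (GAGAGAG on either strand), the Initiator (TCAGT), the DPE, the homeodomain word (TAATTA) and the Hox-Exd word. Positions count from 0 at the start base. Gapdh2 (chrX:15867895-15868194, plus strand) encodes a glycolytic dehydrogenase, and no marked word was found in its window. abd-A (chr3R:16830000-16830299, minus strand) had GA repeats at -207, -193 and -191. zfh2 (chr4:501560-501859, plus strand), a zinc finger homeodomain gene, had homeodomain words at -201 and -179 and an Initiator at 4. tna (chr3L:10857639-10857938, plus strand), a gene of trithorax function, had 1 GA repeat, 1 homeodomain word, 1 Hox-Exd word and an Initiator. Dr (chr3R:29556136-29556435, plus strand), a muscle and neuroblast homeodomain gene, had GA repeats at -114, -112 and 37, an Initiator at 0 and a DPE at 29. pnr (chr3R:16025829-16026128, plus strand), the GATA factor gene of heart and dorsal ectoderm, had GA repeats at 6 places and an Initiator at 2.
Gapdh2: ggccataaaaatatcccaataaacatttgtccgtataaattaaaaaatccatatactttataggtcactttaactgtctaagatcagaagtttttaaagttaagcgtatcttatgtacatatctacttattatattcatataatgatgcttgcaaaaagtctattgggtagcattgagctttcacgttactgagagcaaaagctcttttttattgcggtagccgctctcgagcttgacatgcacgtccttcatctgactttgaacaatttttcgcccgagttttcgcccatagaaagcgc
abd-A: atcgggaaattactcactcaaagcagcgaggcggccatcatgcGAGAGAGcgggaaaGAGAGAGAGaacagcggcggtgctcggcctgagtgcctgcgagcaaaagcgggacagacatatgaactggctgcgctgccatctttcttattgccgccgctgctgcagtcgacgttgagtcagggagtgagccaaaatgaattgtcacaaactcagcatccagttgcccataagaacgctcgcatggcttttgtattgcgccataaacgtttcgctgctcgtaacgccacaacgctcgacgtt
zfh2: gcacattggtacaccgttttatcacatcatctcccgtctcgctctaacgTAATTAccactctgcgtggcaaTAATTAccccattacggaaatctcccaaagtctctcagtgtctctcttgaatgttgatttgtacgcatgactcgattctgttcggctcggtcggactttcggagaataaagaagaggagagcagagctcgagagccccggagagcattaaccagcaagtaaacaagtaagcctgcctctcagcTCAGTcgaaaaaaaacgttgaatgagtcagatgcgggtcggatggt
tna: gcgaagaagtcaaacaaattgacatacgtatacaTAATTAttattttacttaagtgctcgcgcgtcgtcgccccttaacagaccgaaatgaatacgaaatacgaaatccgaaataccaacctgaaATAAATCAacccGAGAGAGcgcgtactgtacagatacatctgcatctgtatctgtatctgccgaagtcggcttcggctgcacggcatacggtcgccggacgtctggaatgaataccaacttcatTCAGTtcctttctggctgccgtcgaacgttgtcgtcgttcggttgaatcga
Dr: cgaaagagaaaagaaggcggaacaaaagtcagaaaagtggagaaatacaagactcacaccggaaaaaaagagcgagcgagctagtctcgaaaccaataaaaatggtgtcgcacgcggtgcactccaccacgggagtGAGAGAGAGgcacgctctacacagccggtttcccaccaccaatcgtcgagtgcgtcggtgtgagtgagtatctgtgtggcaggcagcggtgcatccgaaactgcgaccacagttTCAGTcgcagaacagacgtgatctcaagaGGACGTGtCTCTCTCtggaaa
pnr: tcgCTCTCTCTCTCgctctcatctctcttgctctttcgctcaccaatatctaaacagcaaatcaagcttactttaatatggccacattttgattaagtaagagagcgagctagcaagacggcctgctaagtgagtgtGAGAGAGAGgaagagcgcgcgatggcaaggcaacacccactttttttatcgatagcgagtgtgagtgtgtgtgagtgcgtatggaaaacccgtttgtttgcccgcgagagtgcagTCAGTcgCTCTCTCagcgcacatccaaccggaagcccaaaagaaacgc

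The strongest peaks of the group lay upstream of starts, with Gapdh2, abd-A, zfh2 and tna first. Strength is given as the authors' signal value divided by the median of the same full replicate list of 30000 peaks. At Gapdh2 (chrX:15867702-15868271) the peak reached 22.3, 24.1 and 20.5 times the list median in replicates 1, 2 and 3, with its summit 162 bp upstream of the start. No other single-direction promoter peak had a higher mean (22.3 ± 1.77, SD, n = 3). The tagged gene's own promoter, abd-A (chr3R:16829082-16830832), had 21.1, 17.1 and 16.4 times the list median, 109 bp upstream. How many copies of this locus the line carried is not given in the sources used here. zfh2 (chr4:501357-501968) had 15.9, 13.8 and 14.1 times, and tna (chr3L:10857196-10858047) 14.9, 12.5 and 14.2 times. All 3 replicates of these 4 peaks lay above every replicate value of larp, CG1888 and CG42831, the genes at the lower end of the 25 strongest. The 25 were ranked by the mean of these same replicate values, so the separation follows in part from the ranking.

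The other genes among the 25 strongest were of several kinds. The peak at apt, a regulator of trachea and head development, had 12.4 ± 0.608 times the list median (SD, n = 3), and the one at SoxN, a Sox factor of the neuroectoderm, 10.9 ± 0.804. Sox14 had 10.4 ± 0.760 and mirr, an Iroquois homeodomain gene, 10.4 ± 0.739. hth, the Hox partner gene, had 9.76, 9.85 and 8.57 times in the 3 replicates, Sidpn, a repressor gene of the Hairy family, 9.35 ± 0.768, mid, a T-box gene of heart and neurons, 9.24 ± 0.726, and retn, an ARID gene, 9.23 ± 0.880. The peak at tou, of a chromatin protein, had 12.2 ± 1.63, tara, of trithorax function, 10.8 ± 1.47 and ph-p, a Polycomb repressive complex subunit gene, 10.3 ± 2.07. The largest spread among the 25 was at galectin, a sugar-binding lectin gene, with 12.7, 7.22 and 10.1 times. The remaining genes were mtd, px, bun, Fkbp14, larp, CG14100, CG18549, CG1888 and CG42831, from 11.9 ± 2.05 at mtd to 8.07 ± 0.531 at CG42831. In 24 of the 25 the summit was upstream of the start, at a median of -201 bp. CG42831 was the exception, with its summit 306 bp downstream in coding sequence.

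**Figure D1:**
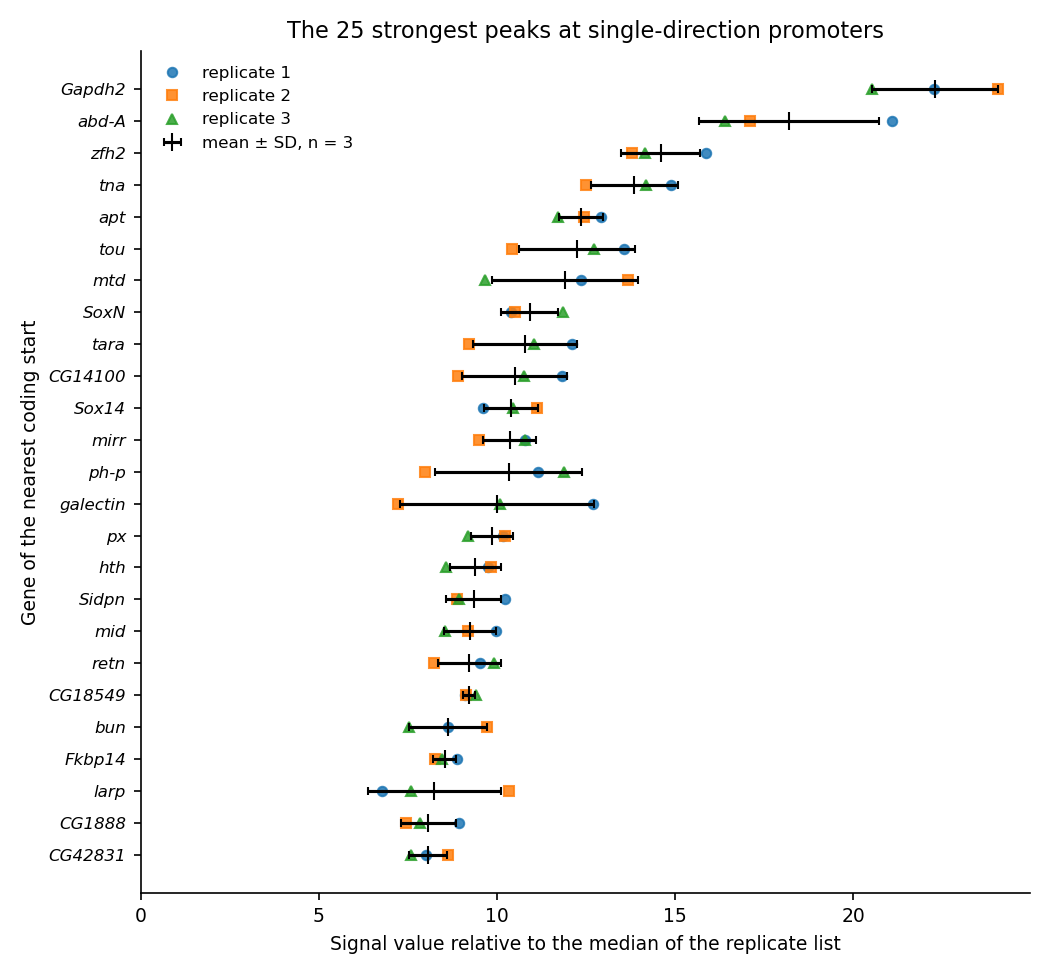
Signal value relative to the median of the replicate list (x axis) for the 25 strongest peaks at single-direction promoters, named by the gene of the nearest start (y axis). Symbols are the 3 replicates and black bars the mean ± SD; Gapdh2 lies between 20.5 and 24.1 in the 3 replicates and abd-A between 16.4 and 21.1, so their ranges overlap, while Gapdh2 is the higher within each replicate.

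Across all members the mean strength ran from 0.755 to 22.3 times the list median, with a median of 2.35 and quartiles of 1.84 and 3.20. In 56 members at least 1 full replicate list had no overlapping peak (9 in replicate 1, 32 in replicate 2 and 22 in replicate 3). The mean was then taken over the others. The class median was 2.44, 2.28 and 2.42 in replicates 1, 2 and 3 (2.38 ± 0.0896, SD, n = 3). Divergent coding promoters, defined by an opposite-strand coding start within 1000 bp on either side, had 2.43 ± 0.0462. Intronic peaks away from coding starts had 2.24 ± 0.0387 and intergenic peaks 2.27 ± 0.0433. Class medians left out peaks missing from a list. In replicates 1, 2 and 3 these were 11, 14 and 10 of 3837 intronic peaks and 8, 15 and 3 of 1933 intergenic peaks. Among 381 divergent promoter peaks 1, 10 and 12 were missing. Members were thus missing more often than intronic or intergenic peaks in each replicate. Single-direction promoters were above intronic peaks in 3 of 3 replicates, by 0.138 ± 0.0598, and above intergenic peaks in 3 of 3, by 0.112 ± 0.0490 (exact sign-flip permutation test, two-sided, p = 0.25 for both, the smallest p that 3 replicates allow). With summits within 250 bp of the start the differences were 0.0959 and 0.0613 and their sign was mixed across replicates (exact permutation p = 0.5 for both). Against divergent promoters the sign was mixed, at -0.0442 ± 0.0788 (exact permutation p = 0.5). In the stronger 50% of the IDR list the difference from intronic peaks fell to 0.0144 (exact permutation p = 0.75). That from intergenic peaks turned to -0.0342 there and that from divergent promoters to 0.00866. Only the mean difference from intronic peaks kept its sign under all 11 alternatives, and in the stronger 50% its sign was mixed across replicates.

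Averaged over the cut replicate lists, these peaks were repeated about as often as the other classes, but less often in replicate 2. Of the 1589 members, 90.6%, 83.8% and 89.6% were overlapped by one of the 8143 strongest peaks of replicates 1, 2 and 3 (88.0% ± 3.68, SD, n = 3). All 3 lists held 1137 of them (71.6%), and none held 7. Divergent promoters had 89.0% ± 2.58, intronic peaks 88.5% ± 0.686 and intergenic peaks 88.1% ± 1.24. In replicate 2 these classes had 88.2%, 88.0% and 86.9%, above the 83.8% of members. The IDR list was made from these replicates, so the shares are a description. Across members, which are not independent replicates, Spearman's rho of strength was 0.613 for replicates 1 and 2 (1549 members), 0.780 for 1 and 3 (1559) and 0.642 for 2 and 3 (1540). Applied to the replicate lists, the rule found 1645, 1554 and 1610 peaks (1603 ± 45.9, SD, n = 3), or 19.7% ± 0.564 of each list.

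Summits lay mostly upstream of the start. In the IDR list 69.1% of members were upstream on the gene's strand, with a median of -96 bp and quartiles of -229 and 26 bp. From -500 to -250 bp there were 331 members, from -250 bp to the start 767 and in the first 100 bp after it 322. Another 102 lay between 100 and 250 bp downstream and 67 beyond. By annotation 586 summits (36.9%) were outside transcripts, 485 (30.5%) in introns of any transcript, 457 (28.8%) in 5' UTR exons, 19 (1.196%) in coding sequence, 11 in 3' UTR exons and 31 in other exons. Replicate lists had 68.7%, 67.8% and 69.0% upstream.

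At divergent promoters 55.5% ± 1.503 of replicate summits were upstream, against 68.5% ± 0.612 at single-direction promoters (SD, n = 3). The difference of 13.0 ± 2.02 percentage points held in 3 of 3 replicates (exact sign-flip permutation test, two-sided, p = 0.25, the smallest possible). The classes limit this comparison by their construction. The opposite start of the divergent class can lie on either side. Where it lies upstream, a summit more than midway to it is counted to that other start, so the upstream distance is cut short. The medians were -92.5 ± 17.4 and -17 ± 7.05 bp.

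**Figure D2:**
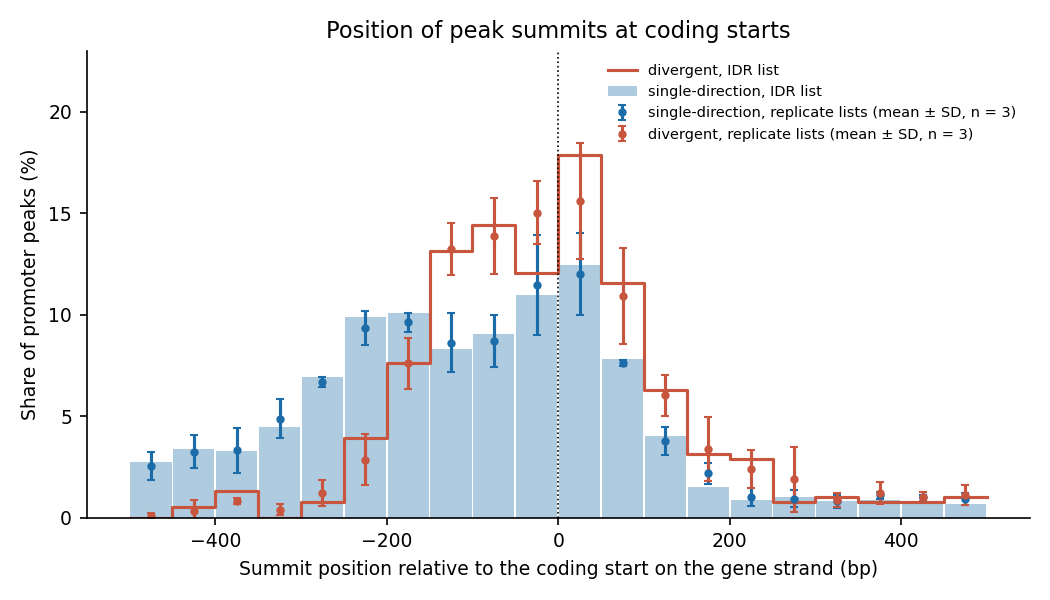
Position of peak summits relative to the nearest coding start in 50 bp bins (x axis, negative is upstream) as a share of the promoter peaks of each class (y axis). Filled bars (single-direction) and the line (divergent) are the IDR list, points with bars the mean ± SD of 3 replicate lists. Single-direction summits spread over the 250 bp upstream of the start and fall off past 100 bp downstream, and divergent summits lie closer to the start.

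Stronger peaks lay further upstream. Peaks at single-direction promoters in each replicate list were split into 5 equal classes by strength. In the strongest class 78.8% ± 1.89 of summits were upstream (SD, n = 3), at a median of -163 ± 29.5 bp. The next classes had 71.8%, 63.3% and 64.8%, and the weakest had 63.8% ± 1.60, at a median of -60.2 ± 9.25 bp. The strongest class exceeded the weakest by 14.9, 18.5 and 11.8 percentage points in the 3 replicates (15.05 ± 3.33, exact sign-flip permutation p = 0.25, two-sided, the smallest possible). The share of summits in exons ran the other way, from 23.3% ± 1.68 in the strongest class to 36.8% ± 2.60 in the weakest.

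A minority of eligible genes had such a peak. Of 9521 coding genes with a single-direction start, 1287 (13.5%) had an IDR summit nearest to that start and within 500 bp, and are called bound below. This exceeds the number of nearest genes because a start shared by genes, such as that of ChAT and VAChT, counts for each. In the replicate lists the share was 14.1%, 12.7% and 13.7%. Among 5141 genes with a divergent start 361 (7.02%) were bound there. Counted by distinct start, 1462 of 13038 single-direction starts were bound (11.2%). The main arms were alike, with 11.4% of starts bound on 2L, 11.3% on 2R, 11.8% on 3L, 11.2% on 3R and 10.7% on X, while on chromosome 4 it was 3 of 112 (2.68%), zfh2 among them.

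Bound genes were longer and had more starts. The median length was 12382 bp for bound and 1971 bp for other genes with a single-direction start. Of genes up to 2000 bp long 3.10% were bound, of those from 2000 to 5000 bp 9.54%, from 5000 to 20000 bp 24.2%, and above 20000 bp 49.4%. With 1 single-direction start 8.14% of genes were bound, with 2 starts 23.5%, with 3 or 4 starts 39.2% and with 5 or more 64.0%. A gene with more starts has more windows in which a peak can fall, so these shares are not shares per start. Genes named only by a CG number, which lack a given name, made up 28.5% of bound and 50.01% of other genes.

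Genes with a bound promoter also had peaks elsewhere more often. Among genes up to 5000 bp long, 30.6% of bound genes had another IDR summit away from coding starts in the gene body or the 2000 bp around it, against 8.997% of unbound genes. Between 5000 and 20000 bp the shares were 53.9% and 21.7%, and above 20000 bp 85.2% and 61.8%. The nearest other IDR summit lay at a median of 2080 bp from members, and 30.2% of members had none within 5000 bp. For intronic peaks these values were 1703 bp and 24.4%, and for intergenic peaks 2055 bp and 29.6%.

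Genes with several promoters were often bound at some of them. Single-direction starts of 438 bound genes spanned over 2000 bp and formed 2 or more groups over 1000 bp apart. Only bound genes were taken, so at least 1 group in each gene was bound by construction. Of these genes 301 were bound at 1 group and 57 at every group, and 609 of the 1268 groups were bound (48.03%). The most upstream group was bound in 280 genes (63.9%). cpx, the complexin gene of synapses, and Tlk, a chromatin kinase gene, had 6 peaks each. Tlk was bound at 5 of its 7 groups and dnc, the cAMP phosphodiesterase gene, at 5 of 8. bun, REPTOR and ps had 5 peaks each, and ph-p, Ald1, pum and btsz had 4. The 4 peaks of ph-p shared 1 interval, so they are not separate regions. The peaks of cpx lay in 5 intervals, those of bun and of REPTOR in 4 each and those of Ald1 in 3. Strength at these genes ranged from 2.64 ± 0.320 times the list median at the best peak of dnc to 10.3 ± 2.07 at ph-p. pum, a translational repressor gene, had 6.23, 6.40 and 6.30 times in the 3 replicates.

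Gene lists differed widely in how many promoters were bound. All list shares stand beside the 13.5% over all genes with a single-direction start. They also stand beside the share over genes of the same classes of length and number of starts, a background chosen after the data were seen. It is called genes of the same length and starts below, but genes within a class can differ in length, so the match is coarse. Of the 26 lists 15 were above each of these backgrounds. In the stronger 50% of the IDR list, where 7.97% of all genes were bound, textbook targets and segmentation genes had 7 bound each, nervous system genes 6, ligand genes 5 and receptor genes 3, with shares of 17.6% to 41.2%. Lists share members, and no list test was run. The lists were chosen with earlier results of these data known, so high shares may follow in part from that choice.

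The Hox cofactor and collaborator list had the highest share bound. All 9 genes of the Hox cofactor and collaborator list with a single-direction start were bound, against 27.6% over genes of the same length and starts, and replicate lists gave 9, 8 and 8. exd, the main Hox partner gene and the other member, had only a divergent start, which was not bound. With an opposite start sought within 500 bp, 9 of 10 members were bound. hth led with the values above. en, the homeodomain gene of posterior compartments, had 5.19, 5.36 and 5.36 times the list median, and tsh, the trunk zinc finger gene, 4.52, 4.33 and 4.55 times. The other members ran from 4.05 ± 0.445 at slp2 down through tio, inv, disco-r and disco. slp1 was uneven, with 3.47 times in replicate 1, no peak in the replicate 2 list and 0.746 times in replicate 3.

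Among the Hox genes 4 of 8 were bound (45.1% over genes of the same length and starts). Ubx, its neighbour in the Bithorax complex, had 5.59, 5.61 and 5.93 times the list median at its promoter. Antp, of the thorax, had 4.87, 4.81 and 4.94 times with 4 peaks, and Scr 3.78, 2.70 and 3.71 times. All 3 lay below abd-A in every replicate. Abd-B, lab, pb and Dfd, the last 3 of the head, had no peak at a single-direction start.

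Of 17 genes described in textbooks as targets of abd-A or its neighbour Ubx, 11 were bound (40.5% over genes of the same length and starts), and the replicate lists gave 11, 11 and 12. Beyond Ubx and Antp, dpp, the midgut BMP signal gene, had 2.85, 3.56 and 3.15 times the list median, and Ndae1, an ion exchanger gene of the heart, 4.17, 2.16 and 3.22 times. The group also held pnt, wg, grh, rpr, rho, Con and opa, from 3.07 ± 0.618 at pnt to 2.05 ± 0.478 at opa. Dll, Ih, ap, betaTub60D, salm and svp had no such peak.

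Glycolysis genes were bound in 6 of 9 cases (21.8% over genes of the same length and starts), with 6 in each replicate list. After Gapdh2, the aldolase gene Ald1 had 8.26, 6.34 and 8.41 times the list median, with 4 peaks in 3 intervals. Pgk had 5.35 ± 0.524, Eno 5.17 ± 0.864, Hex-A 4.71 ± 1.14 and Ldh, lactate dehydrogenase, 2.70 ± 0.920 (SD, n = 3). Pfk, PyK and Tpi had none.

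Regulators of segmentation, muscle and heart had shares above the 13.5% of all genes. Segmentation genes were bound in 11 of 23 (16.4% over genes of the same length and starts), among them the pair-rule genes hry, with 4.00, 4.45 and 4.42 times the list median, and eve, with 1.78, 1.67 and 1.87. Muscle and heart regulators were bound in 12 of 26 (25.5%). Here mid came first, then pnr with 7.04, 6.35 and 6.30 times, the ladybird gene lbe with 6.39, 4.76 and 7.22 and Dr with 5.34, 5.21 and 4.25. The values of tin, the heart homeodomain gene, were lower, at 2.34, 1.71 and 2.05 times.

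Signalling genes followed. Of 24 ligand genes 9 were bound (25.3% over genes of the same length and starts), with Wnt2 highest at 6.75 ± 0.524 times the list median and spi, the EGF ligand gene, at 5.15 ± 1.58 (SD, n = 3). Of 17 receptor genes 7 were bound (31.9%), with InR, the insulin receptor gene, highest at 4.29, 4.18 and 4.31 times, and htl, an FGF receptor gene, with 3.05, 2.55 and 3.52. The ecdysone response list had 6 of 11 bound (49.1%), with Eip75B at 5.56 ± 1.29 and Hr38 at 4.29 ± 0.626, but 2 of 10 with gene 5' ends only as starts. The list of nervous system function had 10 of 20 bound (37.0%), with the RNA-binding protein gene elav at 7.75, 5.75 and 7.36 times. Its 9 fellow members did not exceed 2.98 ± 0.306, the value of the peak at the shared start of ChAT and VAChT.

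Polycomb genes were bound in 5 of 12 cases (18.7% over genes of the same length and starts). ph-p and its tandem copy ph-d had 10.3 ± 2.07 and 5.45 ± 1.16 times the list median, and the neighbours Su(z)2 and Psc 7.82 ± 0.815 and 4.16 ± 0.609 (SD, n = 3). Reads of near-identical stretches of ph-p and ph-d may be shared, so their values are uncertain. Trithorax group genes and genes of GA-repeat factors were bound in 6 of 11 cases (42.9%). psq had 5.90, 6.04 and 5.48 times, trx 4.36, 4.41 and 4.45 times, while Trl had 2.91, 0.958 and 2.07 times. kis, lola and fs(1)h were the other bound members.

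Glycolysis aside, the lists of general cell functions below had 0 to 33.3% of their genes bound. No gene was bound among 15 mitochondrial ribosomal protein genes, 23 proteasome, 11 aminoacyl-tRNA synthetase, 14 RNA polymerase II and general factor genes or 6 insulator and promoter factor genes. The shares over genes of the same length and starts for these 5 lists were 5.64%, 3.60%, 11.7%, 5.84% and 17.7%, about 1 gene in each list, so a count of 0 is near them. Respiratory chain genes were bound in 1 of 46 cases (7.27%), namely ATPsynC at 2.86 ± 0.461 times the list median, and translation factors in 2 of 30 (8.57%), eEF1alpha1 and eEF2. Cell cycle genes had 1 of 15 (23.1%), the growth regulator Myc at 2.20 ± 0.204. Cytoplasmic ribosomal protein genes stood higher, with 6 of 38 (6.49%), but replicate lists gave 9, 4 and 8, the stronger 50% of the IDR list gave 3 (7.89%, against 7.97% of all genes), and of the 6 members RpL30 was highest at 5.16 ± 0.844. Chaperones had 4 of 20 (9.94%), Hsc70-3 and the small heat shock genes Hsp22, Hsp23 and Hsp27, at 2.31 ± 0.312 to 3.15 ± 0.160. Cytoskeleton genes had 5 of 15 (22.5%), led by the actin gene Act5C at 3.65 ± 0.312 and betaTub56D at 3.22 ± 0.623, but with gene 5' ends only as starts 1 of 10 was bound, under the 11.0% of all genes.

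Few genes of adult senses or cuticle were bound, and the histone share was near that of genes of the same length and starts. None of 153 odorant, gustatory and ionotropic receptor genes was bound (5.65% over genes of the same length and starts), and none in any replicate list. Cuticular protein genes had 2 of 67 (5.71%), Cpr78Cb at 3.45 ± 0.681 times the list median and Cpr11A at 2.23 ± 0.0623. Histone genes had 1 of 28 (3.57%, against 3.67% over genes of the same length and starts), the variant gene His3.3B at 4.29 ± 0.647. Reads of the repeated histone cluster may not be placed.

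**Figure D3:**
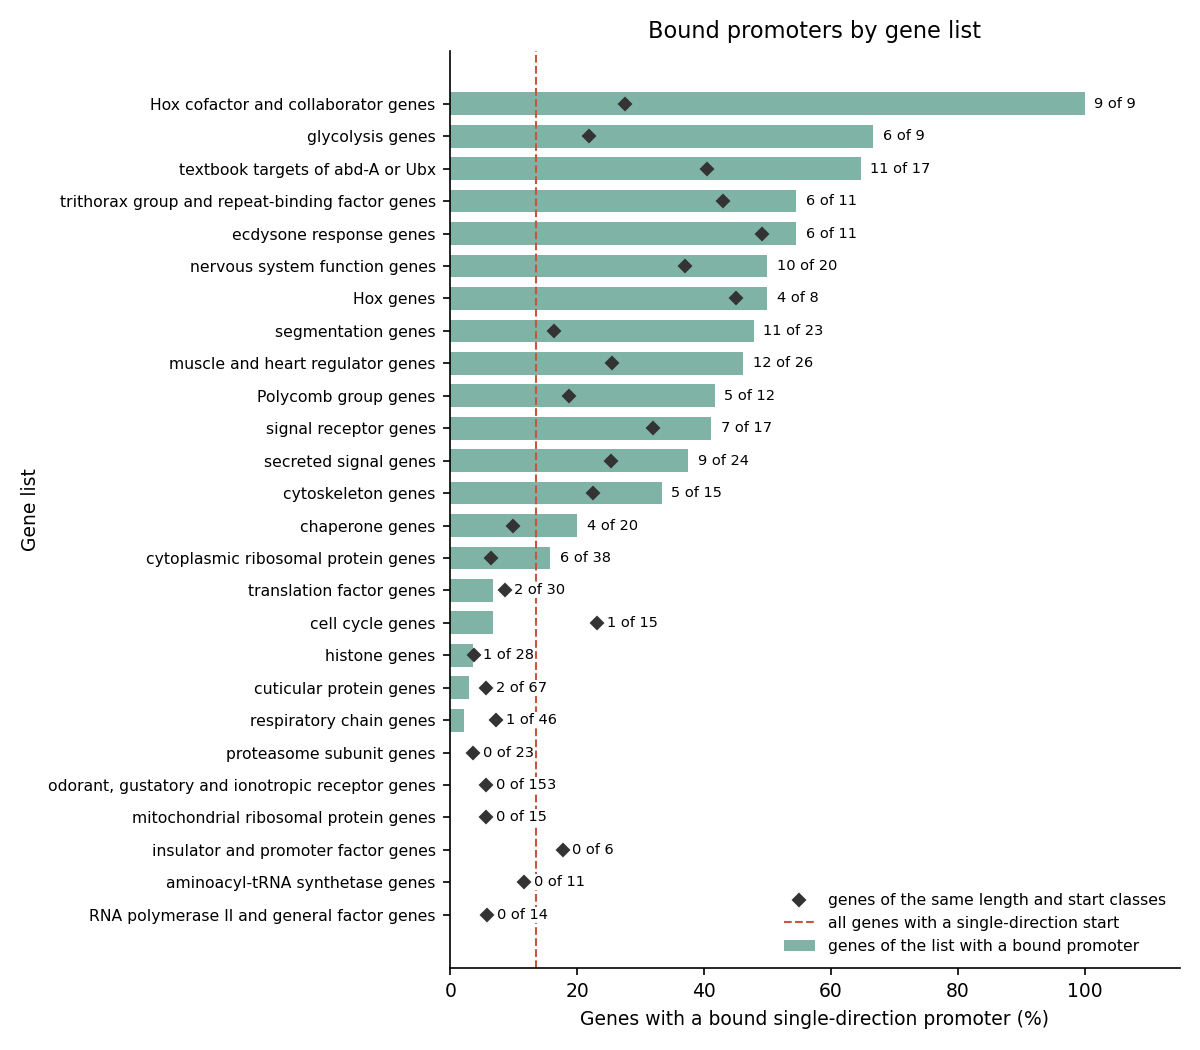
Genes with a bound single-direction promoter as a share of the list's genes with such a start (x axis, percent) for 26 gene lists (y axis). Bars are the lists, with their counts beside them, and diamonds the share over genes of the same classes of length and number of starts. The dashed line is the 13.5% over all such genes. Hox cofactors stand highest and 6 lists have no bound promoter.

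Bound promoters differed in sequence from unbound ones. Words were sought from 250 bp before to 49 bp after 1462 bound starts, 11351 single-direction starts with no IDR summit within 500 bp, and 358 bound divergent starts, whose windows often hold the opposite promoter too. The GA repeat (GAGAGAG, both strands) was in 23.7% of bound promoters (95% Clopper-Pearson interval 21.5 to 25.9, counting error only), 7.34% of unbound ones, 10.3% of bound divergent ones and 7.62% of all 19253 coding promoters. With bound promoters taken from replicates 1, 2 and 3 the share was 24.2%, 23.2% and 25.1%, above the unbound share by 16.9 ± 1.13 points (SD, n = 3). The repeat was higher at bound promoters in each of 4 classes of gene length, from 13 of 130 against 2.62% in the shortest genes to 31.3% against 16.7% in the longest, and in each of 5 classes of GC content. These classes were chosen after the data were seen.

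Words of the core promoter split by kind. The Initiator (TCAGT on the gene strand, within 8 bp of the start) was in 24.3% of bound and 13.1% of unbound promoters, and in 10.9% of bound divergent ones. The DPE (AGACGTG or GGACGTG or AGTCGTG or GGTCGTG on the gene strand, 15 to 45 bp downstream) was in 4.58% and 1.22%. Replicates gave 4.39%, 4.24% and 4.51% for bound promoters. Initiator and DPE were higher at bound promoters in 4 of 4 length classes and 4 of 5 GC classes, the exception being promoters below 35% GC. The TATA box (TATAAA on the gene strand, 45 to 15 bp upstream) went the other way, with 4.10% of bound against 9.58% of unbound promoters, lower in all 5 GC classes. In genes up to 2000 bp long it was higher, at 21.5% against 14.9%. The Initiator and the GA repeat stood together in 7.11% of bound and 1.86% of unbound promoters. None of GA repeat, Initiator, DPE and TATA box was found in 54.4% of bound and 72.9% of unbound promoters. The start word of ribosomal protein genes (CCTTTC or CCTTTT or TCTTTC or TCTTTT near the start) was in 2.19% and 1.55%.

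Words of constitutive promoters were more frequent at divergent than at single-direction promoters, bound or not. The word of Dref and BEAF-32 (TATCGATA) was in 4.17% of bound single-direction, 4.64% of unbound and 15.1% of bound divergent promoters. The word of M1BP (GGTCACAC) was in 4.72%, 3.73% and 15.1%. Motif 6 (GTATATTT or GTATTTTT) was in 7.18%, 9.73% and 16.2%, and Motif 7 (CATCNCTA, CAGCNCTA, CATCNCTG or CAGCNCTG) in 14.4%, 13.1% and 30.7%. Divergent promoters with no IDR summit within 500 bp, 5534 in all, had the Dref word in 14.9%, the M1BP word in 12.4%, Motif 6 in 16.01% and Motif 7 in 26.997%, so the bound ones were close to them. The 3 replicates gave 15.5% ± 1.31 for the Dref word and 13.5% ± 0.949 for the M1BP word at bound divergent promoters. These words were sought on both strands.

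Words of homeodomain proteins were less frequent at bound than at unbound promoters, and so was an AT-rich control word. The homeodomain word (TAATTA) was in 10.9% of bound, 17.8% of unbound and 21.2% of bound divergent promoters. The word TTTATG of posterior Hox proteins was in 21.5%, 26.2% and 31.0%, the Hox-Exd word (TGATTAAT, TGATTTAT, TGATTAAC or TGATTGAT) in 3.90%, 7.77% and 7.82%, and the Hth word (TGACAG) in 9.23%, 11.3% and 9.78%. ATATAT, which has the letters of the homeodomain word in another order, was in 16.6%, 24.2% and 24.3%. Bound promoters had 45.9% GC, unbound ones 40.5% and bound divergent ones 40.1%. Within 5 classes of GC, from the lowest to the highest, the homeodomain word was in 29.7% of bound against 29.8% of unbound promoters, 22.0% against 20.8%, 10.3% against 13.8%, 9.39% against 9.47% and 2.81% against 4.36%, so the shares were nearly equal in 2 classes, lower at bound promoters in 2 and higher in 1. The control word was higher at bound promoters in 3. The Hox-Exd word was higher there in 1 GC class, at 5.15% against 4.98%, and lower in the others. In all 4 classes of gene length the homeodomain, Hox-Exd and control words were lower at bound promoters. The part of base composition beyond the GC classes was not tested. All these words were sought on both strands, Hox-Exd and homeodomain words can share bases, and no match in a window says nothing about the protein.

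**Figure D4:**
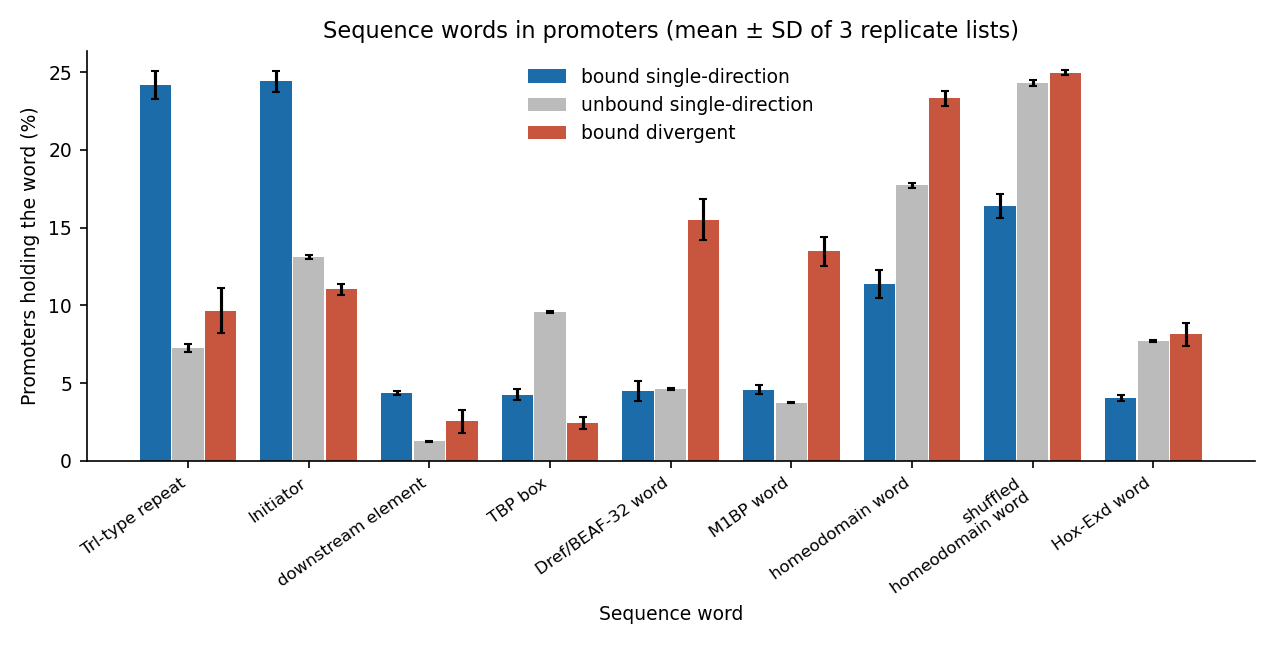
Share of promoters holding a word (y axis, percent) for 9 words (x axis) at bound single-direction, unbound single-direction and bound divergent promoters. Bars are the mean and error bars the SD of 3 replicate lists; the Trl-type (GA) repeat and the Initiator stand near 24% at bound single-direction promoters against 7.26% and 13.1% at unbound ones, while the Dref/BEAF-32 and M1BP words are highest at bound divergent promoters among the 3 groups shown.

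The GA repeat and the homeodomain word were both more frequent in the strongest 20% of members than in the weakest 20%. From the strongest to the weakest 20% of members the GA repeat was in 28.5%, 26.03%, 23.7%, 23.7% and 21.6% of promoters, and the homeodomain word in 14.6%, 12.4%, 10.1%, 12.03% and 6.67%, which is not a steady order. The word TTTATG was in 24.9%, 24.8%, 17.7%, 19.0% and 21.0%, also not a steady order. The Hox-Exd word had no order, with 2.91%, 5.08%, 4.10%, 3.797% and 3.49%, nor had the Hth word, with 9.06%, 9.84%, 10.7%, 7.28% and 8.25%. The control word ATATAT was in 18.1% of the strongest and 15.6% of the weakest 20%. None of these orders was tested. The Initiator showed no such order, with 23.6% in the strongest and 26.03% in the weakest 20%. In the strongest 20% the homeodomain word was still under the 17.8% of unbound promoters. Of the remaining words, the E-box (CAGCTG) was in 20.2% of bound and 15.2% of unbound promoters, the Zelda word (CAGGTAG) in 1.92% and 1.93%, and the Pho word (GCCATTTT, GCCATCTT, GCCATATT or GCCATGTT) in 4.92% and 5.61%, each on both strands.

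The GA repeat was most frequent shortly before the start. In 50 bp bins it was in 8.96% of bound promoters at -100 to -51 bp and in 7.93% at -150 to -101 bp, and in 2.39% just before the start. Unbound promoters had their highest values in the same bins, 2.70% and 2.19%. Homeodomain words were fewest next to the start in both groups, with 0.547% of bound and 1.67% of unbound promoters in the 50 bp before it, and 4.51% and 4.502% at -300 to -251 bp. The 50 bp on either side of the summits of members held a GA repeat in 6.86% of cases. In 50 bp bins counted from the summit it was in 3.40% at -50 to -1 bp and 4.41% at 0 to 49 bp. It was more frequent to either side, with 6.99% at -150 to -101 bp and 5.41% at 50 to 99 bp.

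**Figure D5:**
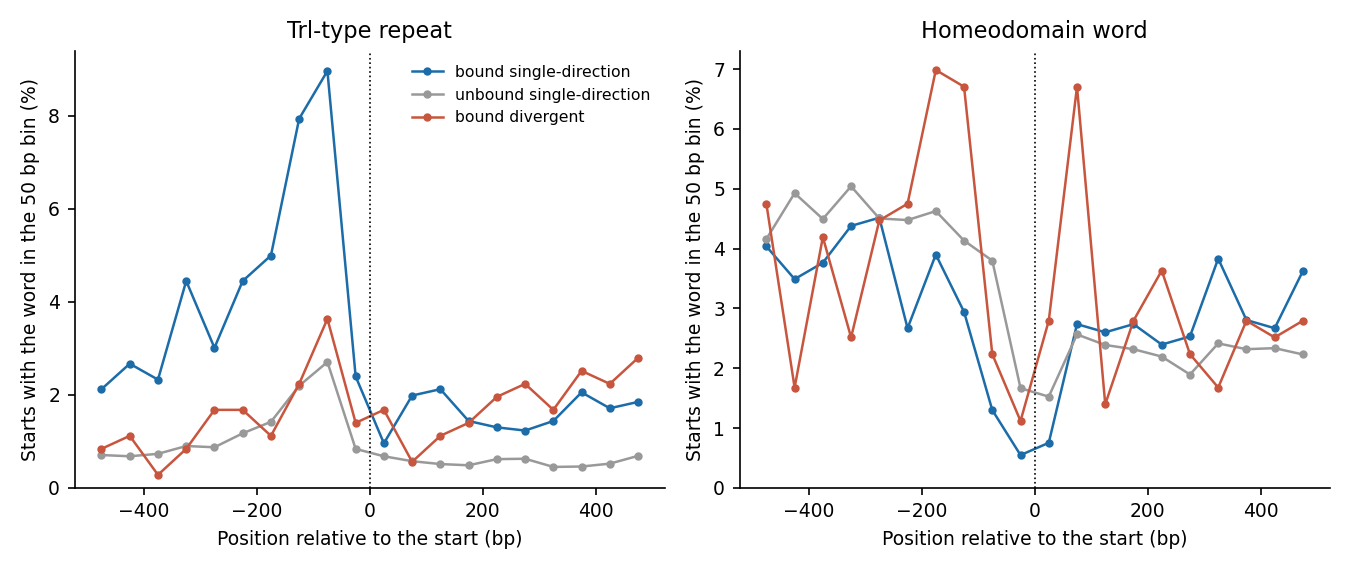
Share of starts with the word in each 50 bp bin (y axis, percent) by position relative to the start (x axis, negative is upstream), for the Trl-type (GA) repeat (left) and the homeodomain word (right). The GA repeat of bound single-direction starts is highest at 8.96% between -100 and -51 bp, and the homeodomain word falls to 0.547% just before the start; the divergent line rests on 358 starts.

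The thresholds of the rule cut through a continuous range. The 121 members with a summit 400 to 500 bp from the start had a median strength of 2.31 times the list median, and 117 peaks from 500 to 600 bp, which are not members, also had 2.31. The 93 members whose nearest opposite start was 1000 to 1500 bp away had 2.63, and 156 peaks excluded for one at 500 to 1000 bp had 2.39. Some members shared an interval with another, 91 in all, so the 1589 summits came from 1542 intervals. Interval width was 119 to 2852 bp with a median of 476 and quartiles of 263 and 476, so many intervals had exactly 476 bp. Chromatin fragments were 200 to 800 bp long, longer than the 50 bp bins used above.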

How the data were processed

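Peaks were called by the authors on dm6: 1 list per replicate, 1 on all replicates pooled and 1 IDR list from them, each replicate list against the same control file, per the deposited text records. No control library was analysed. Aligner, caller and IDR cut: not given in the sources used here. The deposited signal value is a score of the authors' peak caller with no stated scale, used only relative to its list's median. The deposited −log10 q-value was at its ceiling in 93.8% of IDR peaks and was not used. Column 10 of the deposited lists gave the summit. Each replicate list ended at 30000 peaks, and depth is unknown.

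Coding starts were every mRNA start in Ensembl release 115 (FlyBase 6.54), which shares dm6 coordinates. A replicate value is the overlapping peak with the nearest summit. Replicates were compared by exact sign-flip permutation tests, whose smallest p is 0.25, and p-values measure only the spread between these samples. Shares of words and lists carry no test. Members, 26 gene lists and 18 words were chosen with earlier results of these data known, and 8 older symbols were matched. Genes named were the nearest genes of the 25 strongest members, up to 4 per list with the strongest peak and the 10 with most peaks; list members without a peak, and bound members past that number, were named after their values were seen. Sequences are the promoters of 6 of these genes. Assignment and word search were tested on simulated data. Alternatives were other distances, start sets, overlap rules, the stronger 50% of the list, replicate lists and leaving out each replicate. Python 3.11.15, numpy 2.4.6, pandas 2.3.3, scipy 1.17.1 and matplotlib 3.10.9 were used.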

Additional observations from a re-analysis of the deposited data

How the results depend on the processing

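With summits within 250 bp of the start the share of genes bound was 11.0%, the upstream share exceeded that of divergent promoters by 9.31 points and the median was -50 bp; within 1000 bp these were 16.4%, 21.8 points and -125.5 bp. An opposite start within 500 or 2000 bp gave 10.9 and 10.7 points. With gene 5' ends only as starts there were 1055 peaks, 11.0% of genes, a median of -71 bp, the GA repeat in 20.7% and the Dref word in 5.89% of bound promoters. The stronger 50% of the IDR list gave 853 peaks, 7.97% of genes, 17.9 points, a median of -128 bp and 97.7% support, and turned the strength difference from divergent promoters to 0.00866 and from intergenic peaks to -0.0342. In the replicate 1 and 2 lists the upstream difference was 12.6 and 11.3 points, and replicate 2 gave 12.7% of genes. Support was 82.0% with replicate summits within 100 bp and 67.0% with overlap of 50% of both peaks. Within 50 bp of the summit the GA repeat was in 6.86%, the Initiator in 21.6%, the Dref word in 1.07% and the homeodomain word in 4.59%; words tied to the start were sought anywhere in these windows, so the shares do not compare with those above. The cause of the other changes was not tested. Directions of the GA repeat, Initiator, DPE, TATA box and homeodomain word against unbound promoters were kept under all 7 alternatives that gave both shares. That of the Dref word was kept in 5, and turned to 4.83% of bound against 4.58% of unbound promoters with summits within 250 bp and to 5.89% against 5.75% with gene 5' ends; the Zelda word kept its direction in 5 and the Pho word in 6. Between 14 and 17 of 26 lists were above their background under the 11 alternatives run. No paired analysis was possible because the labels give 1 group. Read depth is unknown, so a promoter without a peak may be bound below the caller's limit.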

Other observations

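A repeat of CA (CACACACA, both strands), included as a comparison word with no factor in mind, was in 13.3% of bound and 5.81% of unbound single-direction promoters, and in 13.2%, 12.9% and 13.3% of promoters bound in replicates 1, 2 and 3. Unlike the GA repeat, it was frequent downstream of the start. In 50 bp bins from 50 to 349 bp downstream it was in 4.10% to 5.27% of bound starts, against 0.907% to 1.56% of unbound starts. Bound divergent starts had it in 8.94% at 250 to 299 bp downstream and in 1.68% at 0 to 49 bp. It was higher at bound single-direction promoters in each of 4 classes of gene length and 5 classes of GC content.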
